A study of Mus musculus with 4 samples.

Results

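The genes described here encode proteins that hold endothelial cells to each other and proteins that cover their surface: the cadherins Cdh5 and Cdh2, the catenins Ctnna1, Ctnnd1 and Jup, and the surface molecules Pecam1, Icam2, Mcam, Cd34 and Emcn. They were taken by gene symbol from the deposited table, and all 10 were present among its 24873 genes. RNA-Seq was performed on brain cells in 2 control libraries and 2 tamoxifen libraries. All mice carried Cdh5cre;Mgpflox/flox, that is, a recombinase under the promoter of the VE-cadherin gene and a conditional allele of Mgp, the gene of matrix Gla protein (MGP), an inhibitor of bone morphogenetic proteins. Tamoxifen was given at 75 mg/kg on each of 5 days to mice that were 10 weeks old, control mice received none, and the cells were collected on day 9. Per the study each library came from cells pooled from 3 mice, and the recombinase was the tamoxifen-activated form, cre/ERT2. The study used mice of both sexes in mixed groups but gave no sex for each library. The sample labels call the cells tdTomato+, whereas the study's methods describe sorting for CD31 and against CD45. The columns of the table are headed C and A, and the C columns were taken for the controls and the A columns for tamoxifen, although no label spells out the letter A. The 2 libraries of a group are pools of different animals by the study's account, but a tamoxifen-injected group without the conditional allele was not among them, so Mgp deletion and tamoxifen itself cannot be told apart here.

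Adherens junctions join neighboring endothelial cells through cadherins, whose outer parts bind the same cadherin on the next cell. Inside the cell, p120-catenin (Ctnnd1) holds the cadherin at the membrane, β-catenin (Ctnnb1) or plakoglobin (Jup) binds its tail, and α-catenin (Ctnna1) links that complex to actin. VE-cadherin (Cdh5) is the cadherin of endothelial junctions and a gatekeeper of vascular permeability, whereas N-cadherin (Cdh2) is used by neurons, glia, mesenchymal cells and pericytes and in endothelial cells lies mostly outside the junction. CD31 (Pecam1) and ICAM-2 (Icam2) are immunoglobulin-type adhesion molecules of endothelium and of some blood cells, CD146 (Mcam) is an adhesion molecule of endothelium and pericytes, and CD34 (Cd34) and endomucin (Emcn) are sialomucins that coat the luminal surface.

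The libraries held 35387438 to 49799321 reads on genes, recovered from the deposited normalized counts, which are read counts divided by 1 factor per library. A gene was tested when its mean was at least 10 normalized counts, which 20485 genes met, and was called at a Benjamini-Hochberg (BH) adjusted p under 0.05 with an absolute log2 fold change over 1. Mgp had 1094 and 1352 normalized counts in the controls against 945 and 909 after tamoxifen (log2 fold change -0.39, SE 0.18, limma, BH-adjusted p = 0.0986), and both tamoxifen values were below both control values. By real-time PCR, another measure, the study reported a progressive fall of Mgp over the days after tamoxifen. There it reached a small part of the control level, on a later day than that of these libraries. The groups differed in many other genes. Of all tested genes 44.7% were called, with 16% of all tested genes lower and 28.6% higher in the tamoxifen libraries. All 16 endothelial marker genes outside the group described here were called lower, with a median log2 fold change of -2.96, and their summed normalized count was 1595790 and 1573890 in the controls against 271810 and 128410 after tamoxifen. Markers of other cells were higher, among them all 7 of pluripotent cells, all 6 of fibroblasts, all 6 of astrocytes and 7 of 8 of leukocytes. Also called higher were 5 of 7 neuron, 4 of 5 oligodendrocyte, 4 of 4 platelet, 4 of 4 epithelial and 2 of 10 pericyte and smooth muscle markers. Several of these counts rested on both tamoxifen libraries. Without tamoxifen library 1 or without tamoxifen library 2, the numbers called higher were 0 of the platelet, 0 of the pericyte, 1 of the epithelial and 2 of the oligodendrocyte markers. Without tamoxifen library 2, 3 of the neuron and 2 of the astrocyte markers were called higher, and without tamoxifen library 1, 4 of the astrocyte markers. Leaving out control library 1 gave 1 pericyte marker called higher, and leaving out control library 2 gave 6. The markers Cd3e of leukocytes, Cd48 of progenitors and Utf1 of pluripotent cells had at most 3 reads in each control library. The platelet marker Gp1bb and the epithelial marker Krt5 were chosen too but are absent from the deposited table. In bulk RNA, fewer endothelial cells and less of an RNA per endothelial cell cannot be told apart.

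Of the 10 genes, 7 were called lower and none was called higher in the tamoxifen libraries by limma, against the 16% of all tested genes called lower. The number higher was 0 at an unadjusted p under 0.05 as well, and it was 0 with edgeR and with DESeq2. The 7 were Emcn, Pecam1, Cdh5, Icam2, Cd34, Jup and Ctnnd1. Ctnna1 passed the adjusted p but had a log2 fold change of -0.99, just under the size limit, and Mcam and Cdh2 were not called, both with overlapping groups. The groups did not overlap for 8 genes, all with the lower values after tamoxifen, whereas 82.3% of all tested genes had groups that did not overlap, 39.2% with lower and 43.1% with higher values after tamoxifen. By the adjusted p alone 8 genes were lower and 0 higher, whereas 58.9% of all tested genes passed, 25.5% of all being lower and 33.4% higher. The median log2 fold change of the 10 was -1.99, beside 0.05 over all tested genes. With libraries set to equal totals, the median of all genes moved to 0.52 and that of the 10 to -1.52, and 6 of the 10 were called lower, Ctnnd1 being the gene that lost its call.

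**Figure D1:**
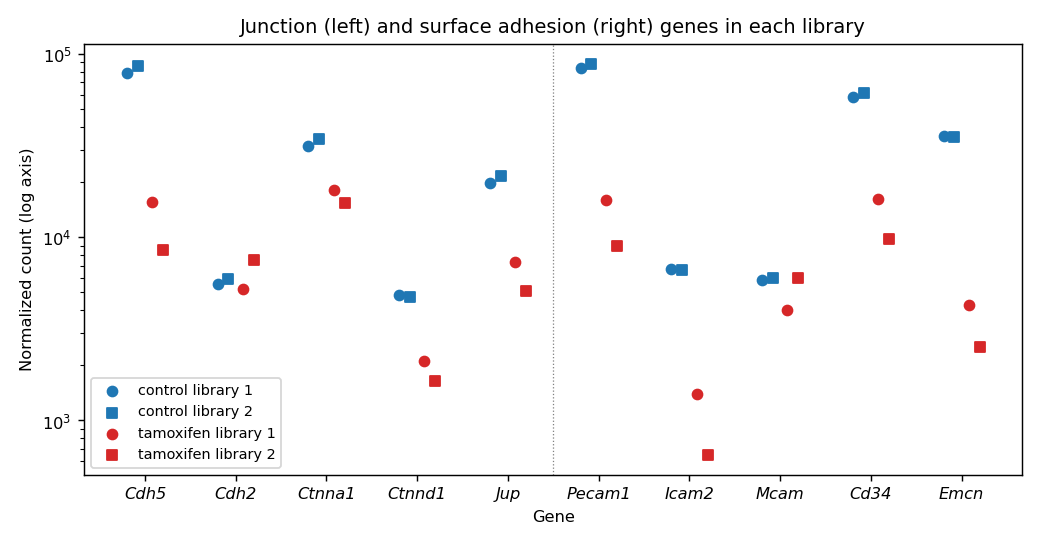
Normalized count (log axis) of each of the 10 genes in the 2 control (blue) and 2 tamoxifen (red) libraries, where each point is 1 library and the dotted line separates junction genes from surface genes. The red points lie below both blue points for 8 genes, with Cdh2 and Mcam as the genes whose groups overlap.

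Among the cadherins, Cdh5 was high in the controls and low in the tamoxifen libraries. It had 79151 and 86328 normalized counts in the controls against 15585 and 8508 after tamoxifen. The groups were far apart, and tamoxifen library 2 was the lowest. The mean was 6.87-fold lower, and the log2 fold change was -2.84 with a standard error (SE) of 0.31 (limma, BH-adjusted p = 0.000196). In the control libraries Cdh5 ranked 60 and 50 from the top of the tested genes by normalized count, and in the tamoxifen libraries 270 and 643. The recombinase in these mice is driven by the promoter of this same gene. Cdh5 lies at chr8:104828231-104871143 of GRCm39.

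The study measured Cdh2 as a mesenchymal marker in cells sorted for CD31 and against CD45. It reported a rise over a time course after tamoxifen by real-time PCR against GAPDH and by immunoblotting. On a later day than that of these libraries it also sorted such cells that carried CDH2 protein. In the normalized counts, which are another measure and come from day 9 only, Cdh2 did not pass the test. It had 5578 and 5925 normalized counts in the controls against 5225 and 7548 after tamoxifen. Tamoxifen library 1 lay below both control libraries and tamoxifen library 2 above both. The log2 fold change was 0.13 with an SE of 0.20 (limma, BH-adjusted p = 0.609). Its sign turned to -0.14 without tamoxifen library 2, and with equal totals the value was 0.60 (limma, BH-adjusted p = 0.0525). Over the alternatives its BH-adjusted p ranged from 0.0525 to 0.831.

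With Cdh5 lower and Cdh2 at 1.11-fold of its control mean, the make-up of the cadherin transcripts differed between the groups. The log2 ratio of Cdh2 to Cdh5 counts, which does not depend on how the libraries were scaled, was -3.83 and -3.86 in the controls against -1.58 and -0.17 after tamoxifen. The mean ratio was 7.84-fold higher in the tamoxifen libraries (exact two-sided permutation p = 0.33, the smallest that 2 libraries against 2 allow). The control libraries differed by 0.04 in this log2 ratio and the tamoxifen libraries by 1.40. A comparison of the levels of 10 cadherin genes needs a correction for length, for which normalized counts were divided by the kilobases of the canonical transcript. On that scale Cdh5 made up 92.2% of the summed cadherin level in both controls against 51.8% and 35.5% after tamoxifen. Cdh2 made up 5.31% and 5.17% in the controls against 14.2% and 25.8% after tamoxifen. The share of Cdh1, the E-cadherin gene of epithelia and pluripotent cells, was 0.04% and 0.06% in the controls against 20.4% and 16.9% after tamoxifen. Cdh1 rose from 41.1 and 58.8 normalized counts to 6746 and 4447, with a log2 fold change of 6.77 (SE 0.29, limma, BH-adjusted p = 5.97e-06).

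**Figure D2:**
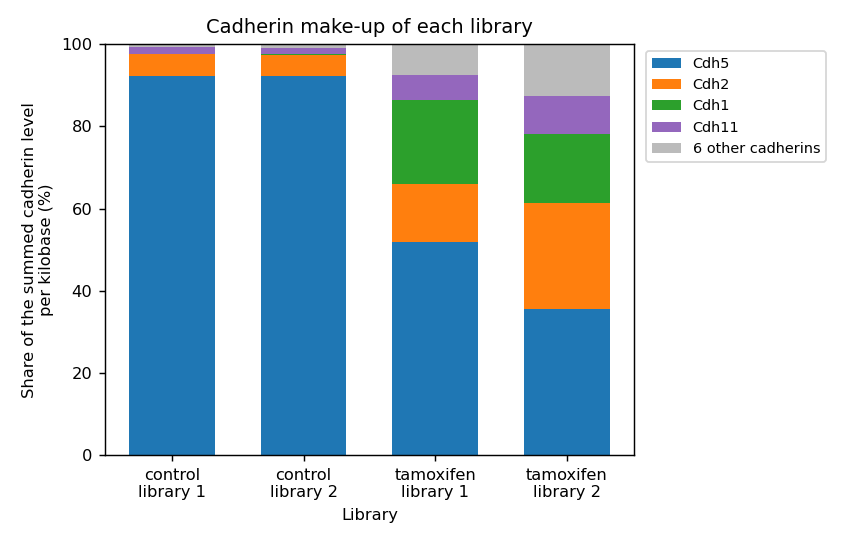
Share of the summed length-corrected level of 10 cadherin genes (vertical axis, %) in each of the 4 libraries, with Cdh5, Cdh2, Cdh1 and Cdh11 shown separately and 6 others together. Cdh5 fills 92.2% of both control bars and 51.8% and 35.5% of the tamoxifen bars, where Cdh2 and Cdh1 take larger shares.

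Summed markers of astrocytes, fibroblasts and neurons, which use N-cadherin, did not overlap between the groups, whereas those of pericytes and smooth muscle did. The summed normalized count of 6 astrocyte markers was 27117 and 31486 in the controls against 134790 and 285980 after tamoxifen, with Slc1a2 and Slc1a3 as the most abundant over the 4 libraries. That of 10 pericyte and smooth muscle markers was 35134 and 65860 in the controls against 49337 and 93646 after tamoxifen, with Rgs5 and Vtn as the most abundant. For both lists the sum after tamoxifen was larger in tamoxifen library 2. The pericyte sum also differed between the control libraries, and that of control library 2 was above that of tamoxifen library 1. The 6 fibroblast markers summed to 2257 and 3213 in the controls against 69745 and 59759 after tamoxifen, with the smaller sum in tamoxifen library 2. The 7 neuron markers summed to 1078 and 1347 in the controls against 9597 and 14253 after tamoxifen, with the larger sum in tamoxifen library 2. The methods describe a sort for CD31, which these cell types lack, whereas the labels call the cells tdTomato+. The part of these cell types in the Cdh2 values was not tested.

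The catenins had smaller fold changes than Cdh5. Jup, the gene of plakoglobin, had 19684 and 21502 normalized counts in the controls against 7339 and 5083 after tamoxifen. It was 3.32-fold lower, with a log2 fold change of -1.75 (SE 0.22, limma, BH-adjusted p = 0.000327). Ctnnd1, the gene of p120-catenin, had 4849 and 4722 in the controls against 2100.4 and 1638 after tamoxifen. Its log2 fold change was -1.37 (SE 0.17, limma, BH-adjusted p = 0.000355), but -0.90 at equal totals, under the size limit (limma, BH-adjusted p = 0.00210). The groups did not overlap for either gene, and the tamoxifen libraries stood closer to each other than for Cdh5. Jup lies at chr11:100259784-100291103 and Ctnnd1 at chr2:84425959-84489326.

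Ctnna1, the gene of the widely used αE-catenin, had 31633 and 34555 normalized counts in the controls against 18013 and 15293 after tamoxifen. The level was 1.99-fold lower with groups that did not overlap (SE 0.21 on the log2 scale, limma, BH-adjusted p = 0.00467). This result depended on the scaling, since the log2 fold change came to -0.28 after quantile normalization (limma, BH-adjusted p = 0.145). It was -0.88 without tamoxifen library 2 (limma, BH-adjusted p = 0.0596). Ctnna1 was called lower with edgeR, where it passed the size limit narrowly, without control library 1 at -1.06 and without tamoxifen library 1 at -1.11. Over its alternatives the BH-adjusted p ranged from 3.26e-06 to 0.145. Within each library Ctnna1 stood higher against Cdh5 in the tamoxifen group, with a log2 ratio of -1.32 in both control libraries and of 0.21 and 0.85 in the tamoxifen libraries. For Jup this log2 ratio was -2.01 in both controls against -1.09 and -0.74 after tamoxifen, and for Ctnnd1 it was -4.03 and -4.19 against -2.89 and -2.38. In each case both tamoxifen values exceeded both control values (exact two-sided permutation p = 0.33, the smallest possible).

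Paralogs of the catenins that neural cells use went the other way. Ctnna2, the gene of αN-catenin, had 90.4 and 91.4 normalized counts in the controls against 706 and 1364 after tamoxifen, and Ctnnd2, the gene of δ-catenin, had 169.8 and 279 against 1509 and 3286. Both were called higher, with log2 fold changes of 3.42 (SE 0.35, limma, BH-adjusted p = 0.000146) and 3.35 (SE 0.39, limma, BH-adjusted p = 0.000246). Ctnnd2 lost its call without tamoxifen library 2, at 2.79 (limma, BH-adjusted p = 0.0563). These genes were named after their values had been seen. Per kilobase, Ctnna1 still exceeded Ctnna2 in the tamoxifen libraries, with 4820.1 against 246 in library 1 and 4092 against 476 in library 2. Between Ctnnd1 and Ctnnd2 the order turned in both tamoxifen libraries. Ctnnd1 shares exon sequence with Gm28635 on its own strand, which the deposited table does not list. How reads in the shared part were counted is not given, so the level of Ctnnd1 against Ctnnd2 is uncertain. Ctnnd1 was at 203.8 against Ctnnd2 at 236 per kilobase in library 1 and at 158.9 against 514 in library 2. In the control libraries Ctnnd1 was at 470.4 and 458 and Ctnnd2 at 26.6 and 43.7 per kilobase. Arvcf, also of the p120 family, was at 81.6 and 147 per kilobase in the controls against 544 and 512 after tamoxifen.

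On GRCm39 the surface genes lie at chr11:106543689-106641454 (Pecam1), chr11:106263312-106278943 (Icam2), chr9:44045504-44054025 (Mcam), chr1:194621029-194647172 (Cd34) and chr3:137046794-137138999 (Emcn). Pecam1 encodes CD31, the antigen by which the cells were sorted per the study's methods, so its level in these cells is not independent of the sort. It had 83681 and 88796 normalized counts in the controls against 15987 and 8973 after tamoxifen. The groups were separated by a wide gap, and the mean was 6.91-fold lower (log2 fold change -2.85, SE 0.31, limma, BH-adjusted p = 0.000181), with a log2 fold change of -1.89 after quantile normalization. The values followed those of Cdh5 closely. The log2 ratio of Pecam1 to Cdh5 was 0.08 and 0.04 in the controls against 0.04 and 0.08 after tamoxifen, so that the difference between the groups, -0.0037, was smaller than the 0.04 between libraries of a group (exact two-sided permutation p = 0.667). Markers of other cells that carry CD31 were higher, with 4 platelet markers summing to 292 and 572 in the controls against 2734 and 2129 after tamoxifen, and 7 pluripotency markers to 60.3 and 93.9 against 46231 and 35639. Their part in the Pecam1 values was not tested.

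Icam2, which encodes a ligand of leukocyte integrins, had 6690 and 6588 normalized counts in the controls against 1404 and 646 after tamoxifen. It was 6.48-fold lower (log2 fold change -2.80, SE 0.32, limma, BH-adjusted p = 0.000236). The groups were far apart, and the tamoxifen libraries differed from each other more than for any other of the 10 genes, tamoxifen library 2 having 0.46 of the value of tamoxifen library 1. Its log2 ratio to Cdh5 was -3.56 and -3.71 in the controls against -3.47 and -3.72 after tamoxifen, with overlapping groups (exact two-sided permutation p = 1.0). The gene Prr29 overlaps Icam2 on the opposite strand, and how strand was treated in counting is not given in the sources used here, but Prr29 had a mean of 50.2 normalized counts in the controls and 31.9 in the tamoxifen libraries. The same uncertainty holds for Cd34, Ctnna1, Mcam and Cdh5, which overlap Gm16897, Lrrtm2, Gm10687 and Gm64067 on the opposite strand, and Ctnnd1 overlaps Gm28635 on its own strand.

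Emcn, the gene of endomucin, fell most of the 10 genes. It had 35556 and 35404 normalized counts in the controls, which lay close together, and 4280 and 2515 in the tamoxifen libraries. The mean was 10.4-fold lower, and the log2 fold change was -3.43 (SE 0.26, limma, BH-adjusted p = 4.43e-05). Against Cdh5 it was lower in the tamoxifen libraries, with a log2 ratio of -1.15 and -1.29 in the controls against -1.86 and -1.76 after tamoxifen (exact two-sided permutation p = 0.33). The other sialomucin, Cd34, had 58049 and 61112 normalized counts in the controls against 16282 and 9812 after tamoxifen. It was 4.57-fold lower, with a log2 fold change of -2.24 (SE 0.28, limma, BH-adjusted p = 0.000358), or -1.39 after quantile normalization. The log2 ratio of Cd34 to Emcn was 0.71 and 0.79 in the controls against 1.93 and 1.96 after tamoxifen. This ratio differed between the groups by 1.20 and between libraries of a group by at most 0.08. Cd34 is also carried by blood progenitors and fibroblasts. The methods describe a sort for CD31 and against CD45. Ptprc, the gene of CD45, had 50.7 and 83.9 normalized counts in the controls against 1423 and 1119 after tamoxifen. Of 5 progenitor markers 4 were called higher, or 2 without tamoxifen library 1, and Gata2, which endothelial cells also express, was called lower. Whether such cells contribute to the Cd34 values was not tested.

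Mcam, the gene of CD146, did not pass the test. It had 5858 and 6029 normalized counts in the controls against 4006 and 5979 after tamoxifen. Tamoxifen library 1 lay below both control libraries, and tamoxifen library 2 lay between them. The log2 fold change was -0.28 (SE 0.21, limma, BH-adjusted p = 0.278), and over the alternatives its BH-adjusted p ranged from 0.0596 to 0.950. No direction can be given for Mcam, since the log2 fold change turned to 0.19 with equal totals, to 0.10 after quantile normalization and to 0.01 without tamoxifen library 1. Mcam and Cdh2 were alike in being 1.49-fold and 1.44-fold higher in tamoxifen library 2 than in tamoxifen library 1. Pericytes and smooth muscle cells also express Mcam. The sum of their 10 markers was 35134 and 65860 in the controls against 49337 and 93646 after tamoxifen, with overlapping groups. The part of these cells in the Mcam values was not tested.

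**Figure D3:**
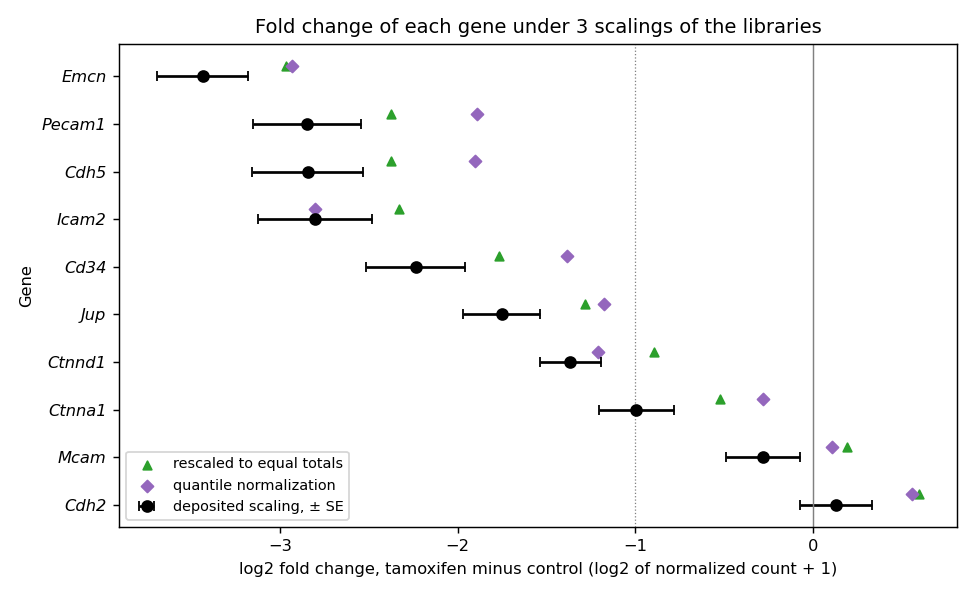
log2 fold change of each gene (horizontal axis, tamoxifen minus control) with its SE under the deposited scaling (black), and without error bars after rescaling to equal totals (green) and after quantile normalization (purple), with dotted and solid lines at -1 and 0. Emcn lies farthest left at -3.43, and Mcam is the gene whose black and colored points fall on different sides of 0.

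Promoter sequences were available from RefSeq for Cd34, Ctnnd1, Emcn, Jup and Mcam, 5 of the 10 genes, each window running from 250 bases before to 50 after the transcription start. The windows of Emcn, which fell most, of Cd34 and Jup, with smaller falls, and of Mcam, which was not called, are printed as one example of each. The RefSeq sequences were listed for GRCm38.p6, and each was found once in the matching chromosome of GRCm39, from which the positions come. Capitals mark the letters GGAAG or their reverse complement, a form of the sites of ETS factors, which are needed for endothelial gene expression. Sites with another letter after the shared core GGAA are not marked.
Emcn, chr3:137046589-137046888, forward strand: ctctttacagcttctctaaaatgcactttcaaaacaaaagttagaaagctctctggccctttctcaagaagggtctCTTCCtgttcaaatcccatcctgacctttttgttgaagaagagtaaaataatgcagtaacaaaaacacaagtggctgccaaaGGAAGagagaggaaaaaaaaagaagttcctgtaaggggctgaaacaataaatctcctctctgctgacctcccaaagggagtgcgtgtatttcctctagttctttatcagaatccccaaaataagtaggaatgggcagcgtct
Cd34, chr1:194620879-194621178, forward strand: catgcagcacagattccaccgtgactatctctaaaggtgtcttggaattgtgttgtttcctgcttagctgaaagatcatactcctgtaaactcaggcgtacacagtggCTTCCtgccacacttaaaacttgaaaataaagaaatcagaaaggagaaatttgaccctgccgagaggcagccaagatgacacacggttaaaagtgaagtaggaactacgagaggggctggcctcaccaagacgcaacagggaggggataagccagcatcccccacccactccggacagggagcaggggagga
Jup, chr11:100288567-100288866, reverse strand: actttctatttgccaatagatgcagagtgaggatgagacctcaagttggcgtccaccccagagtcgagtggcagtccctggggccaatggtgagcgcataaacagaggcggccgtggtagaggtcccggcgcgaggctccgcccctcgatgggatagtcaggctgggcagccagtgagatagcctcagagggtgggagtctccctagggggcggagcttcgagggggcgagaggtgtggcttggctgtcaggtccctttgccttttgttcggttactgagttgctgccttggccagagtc
Mcam, chr9:44045705-44046004, forward strand: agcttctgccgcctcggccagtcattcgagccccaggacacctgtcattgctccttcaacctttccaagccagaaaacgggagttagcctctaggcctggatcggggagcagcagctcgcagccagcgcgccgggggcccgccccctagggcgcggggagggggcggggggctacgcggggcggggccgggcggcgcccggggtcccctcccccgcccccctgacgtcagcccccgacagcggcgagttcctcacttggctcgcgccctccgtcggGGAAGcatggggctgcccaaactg
Searched on both strands, GGAAG occurred 2 times in the window of Emcn, starting 174 and 92 bases before the transcription start. It occurred 1 time in that of Cd34, 142 bases before the start, 1 time in that of Mcam, 26 bases after it, and 0 times in that of Jup. Of all 32851 RefSeq promoter windows 71.4% hold these letters, so their presence in 3 of these 4 windows is no mark of the genes. The letters GATAA, a form of GATA sites, occurred in the windows of Emcn and Cd34 and in 1 of the 2 windows of Ctnnd1. They occurred in 25.4% of all windows. The windows differed in base composition, with 41.0% G and C in Emcn, 50% in Cd34, 60.7% in Jup and 72.7% in Mcam, and with 2, 7, 14 and 29 CG dinucleotides against a median of 7 over all windows. Ctnnd1 had 2 windows, at chr2:84489272-84489571 and chr2:84481035-84481334 on the reverse strand, with GGAAG 2 times in each, overlapping by 1 base in the first. The first held 67.7% G and C with 30 CG dinucleotides and the second 42.7% with 3, so the windows of this gene alone spanned most of the range of the others.

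Within the tamoxifen group the 10 genes fell into a similar order as between the groups. Tamoxifen library 2 had 0.46 to 0.60 of the level of tamoxifen library 1 for Icam2, Cdh5, Pecam1, Emcn and Cd34, 0.69 to 0.85 for Jup, Ctnnd1 and Ctnna1, and 1.44 and 1.49 for Cdh2 and Mcam. For the summed endothelial markers that value was 0.47. Across the 10 genes Pearson's r between the log2 of this value and the log2 fold change between the groups was 0.93 and Spearman's rho 0.87, a description over genes that share the same 2 tamoxifen libraries. The control libraries differed little, with control library 2 at 0.97 to 1.09 of control library 1 for all 10 genes.

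A comparison within each library with the summed count of the 16 endothelial markers ordered the genes. Pecam1, Cdh5 and Icam2 differed least, with a log2 ratio to the marker sum that was 0.24, 0.24 and 0.28 higher in the tamoxifen libraries. Emcn was 0.35 lower and Cd34 0.85 higher. The differences were larger for Jup at 1.33, Ctnnd1 at 1.72, Ctnna1 at 2.09, Mcam at 2.80 and Cdh2 at 3.21. For Cdh2 the log2 ratio was -8.16 and -8.05 in the controls against -5.70 and -4.09 after tamoxifen, a difference between the groups larger than the 1.61 between the tamoxifen libraries. The fold changes of 5 genes (Cdh5, Pecam1, Icam2, Cd34 and Emcn) fell within the range of the 16 markers, -4.10 to -1.79. The other 5 were closer to 0 than any marker, with Jup at -1.75 next to the edge of that range.

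**Figure D4:**
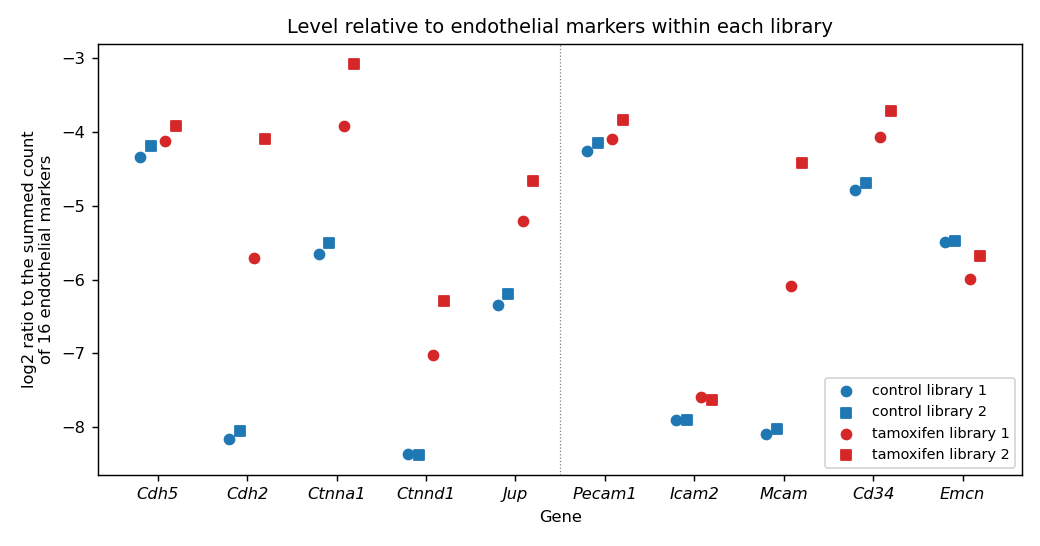
log2 ratio of each gene's normalized count to the summed normalized count of 16 endothelial markers (vertical axis), where each point is 1 library, blue for control and red for tamoxifen. Cdh5, Pecam1 and Icam2 differ little between the colors, whereas Cdh2, Mcam, Ctnna1, Ctnnd1 and Jup lie higher in the tamoxifen libraries.

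Other genes of the junction were read from lists chosen by function, and their counts stand beside the 28.6% of all tested genes called higher and the 16% called lower. Of 19 further cadherins and catenins, 11 were called higher and 4 lower, with a median log2 fold change of 2.27. The largest fitted rise was that of Cdh1 at 6.77. Cdh3, the P-cadherin gene, had 2.74 and 32.5 normalized counts in the controls against 355 and 439 after tamoxifen. Its fitted log2 fold change of 5.14 came to 3.56 when control library 1 was left out and to 6.73 when library 2 was, and it lost its call without tamoxifen library 1 or 2 (limma, BH-adjusted p = 0.139 and 0.154). Cdh15, which was also called higher, had 0 counts in both control libraries. The 4 that fell were Pcdh1, Pcdh12, Pkp4 and Ctnnb1, of which the protocadherin Pcdh12 is an endothelial gene that was formerly named VE-cadherin-2. Pcdh12 went from 8046 and 5822 normalized counts to 2010.4 and 1845 (log2 fold change -1.83, SE 0.19, limma, BH-adjusted p = 0.000156), and it lost its call without tamoxifen library 2 (limma, BH-adjusted p = 0.0547). Ctnnb1, which encodes β-catenin and is also the effector of Wnt signaling, had 58668 and 55742 in the controls against 24652 and 19867 after tamoxifen (log2 fold change -1.37, SE 0.24, limma, BH-adjusted p = 0.00192). The call of Ctnnb1 depended on the scaling, since its log2 fold change was -0.90 at equal totals and -0.49 after quantile normalization, both under the size limit. Jup can take the place of β-catenin at cadherin tails. The log2 ratio of Jup to Ctnnb1 was -1.58 and -1.37 in the controls against -1.75 and -1.97 after tamoxifen. Without tamoxifen library 2 the list had 5 genes called higher, and without tamoxifen library 1 it had 7.

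Among 15 actin linkers and genes of the nectin-afadin system, a second adhesion system of the same junction, 4 were called higher and 5 lower, with a median of -0.28. The number higher was close to the share over all tested genes, 28.6%. Ablim1, an actin-binding LIM protein, fell most, from 131752 and 123638 to 23425 and 11249 normalized counts (log2 fold change -2.97, SE 0.37, limma, BH-adjusted p = 0.000334). Tjp1, the gene of the scaffold ZO-1, was next at -2.17. Both were still called after quantile normalization, at -1.94 and -1.23. Plekha7, whose protein binds p120-catenin, and the LIM protein gene Pdlim1 rose by 3.20 and 3.14 on the log2 scale, Pdlim1 losing its call without tamoxifen library 2 (limma, BH-adjusted p = 0.0501). With equal totals 2 of these genes were called lower instead of 5. Without tamoxifen library 1, 2 genes were called higher and 5 lower, and without tamoxifen library 2, 1 was called higher and 3 lower.

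Of 19 regulators of cadherin junctions, 8 were called lower and 1 higher, with a median of -0.89. Ptprb encodes VE-PTP, the phosphatase that binds VE-cadherin, and was the most abundant gene of the list. It went from 225585 and 201409 normalized counts in the controls to 36240 and 16765 in the tamoxifen libraries (log2 fold change -3.11, SE 0.41, limma, BH-adjusted p = 0.000471). Rasip1, an effector of Rap1 signaling at endothelial junctions, went from 7673 and 7880 normalized counts to 1389 and 678. Ptprm, another receptor phosphatase of junctions, had a log2 fold change of -2.62 (SE 0.25, limma, BH-adjusted p = 0.000108). Radil, which acts with Rasip1, was the gene that rose, from 23.3 and 50.1 to 454 and 301 normalized counts. With equal totals 4 genes were called lower, and Radil lost its call when tamoxifen library 1 or 2 was left out (limma, BH-adjusted p = 0.0883 and 0.0730).

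Of 20 other surface adhesion genes, 13 were called lower and 1 higher, with a median of -1.71. The number called higher was 3 at equal totals and without control library 2, and 2 without tamoxifen library 1. Robo4 and Clec14a, both endothelial receptors, fell most, with log2 fold changes of -3.21 and -3.08. The sialomucin Podxl, a relative of Cd34, went from 96404 and 106906 to 18838 and 9530 normalized counts, and Cd93 from 64235 and 59397 to 14493 and 9917. Their log2 fold changes were -2.92 and -2.37, or -1.94 and -1.53 after quantile normalization. Vcam1, an adhesion molecule for leukocytes, was the gene called higher, with 2050.5 and 2588 in the controls against 9058 and 11136 after tamoxifen (log2 fold change 2.12, SE 0.19, limma, BH-adjusted p = 8.30e-05). Icam1, which resembles Icam2 in its ligands, was lower, with 3490.1 and 4721 against 2020.2 and 1214 (limma, BH-adjusted p = 0.00288). Its call was lost at equal totals, at -0.90, and without tamoxifen library 2 (limma, BH-adjusted p = 0.0985).

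**Figure D5:**
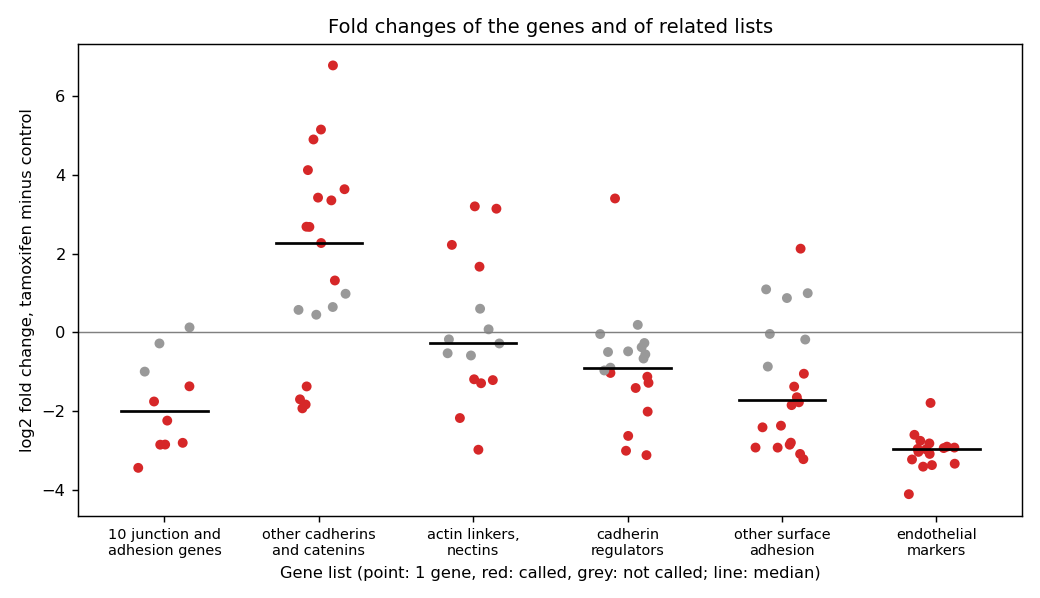
log2 fold change (vertical axis, tamoxifen minus control) of the 10 genes, of 4 lists of related genes and of 16 endothelial markers, where each point is 1 gene, red if called and grey if not, and the line is the median of the list. The medians run from 2.27 for the other cadherins and catenins to -2.96 for the endothelial markers, with the 10 genes at -1.99.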

How the data were processed

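RNA-Seq libraries from brain cells of Cdh5cre;Mgpflox/flox mice were made with a stranded kit. Per the labels and the study's methods STAR 2.7.10a (GRCm39) served for alignment, and the authors removed genes with low counts and normalized the rest with DESeq2 1.36.0. The annotation release, the low-count limit and the strand setting are not given in the sources used here. The deposited signal values are normalized counts, from which whole reads were recovered for 100% of values within 0.01 reads. No factor other than the group entered the model.

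Genes with a mean of at least 10 were tested on log2(value + 1), which understates changes of low genes, with limma 3.58.1 in R 4.3.3 (trended empirical Bayes, BH adjustment), and called at an adjusted p under 0.05 with an absolute log2 fold change over 1. Ratios were compared by exact two-sided permutation tests with scipy 1.17.1 in Python 3.11.15. The alternatives were other pseudocounts (0.5 and 5), no filter or a mean of 100, equal totals, quantile normalization, no trend, a replicate block, leaving out each library, and edgeR 4.0.16 or DESeq2 1.42.0 on the recovered reads. Their use on the lists of related genes was added after seeing the data. The scripts were tested on simulated data. The limma p-values rest on the spread between these libraries, moderated over all tested genes. As each library pools mice, the spread between single animals was not measured. All members are described; from each list of related genes, the called genes with the 2 largest rises and 2 largest falls and the 2 most abundant genes could be named, and from each marker list the 2 most abundant. Any other gene was named after its values had been seen. The members and lists were chosen with earlier results of these data known. Gene positions came from GENCODE M39, which located 162 of 163 genes, and promoters from RefSeq (GRCm38.p6).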

Additional observations from a re-analysis of the deposited data

How the results depend on the processing

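Of 140 fold changes of the 10 genes under the alternatives, 134 kept their direction and their side of the adjusted p of 0.05, 2 of Ctnna1 lost significance and 4 changed sign. With the size limit included, 4 calls changed. Ctnnd1 lost its call at equal totals, and Ctnna1 gained one with edgeR, without control library 1 and without tamoxifen library 1. The sign changed for Cdh2 without tamoxifen library 2 (-0.14, range -0.14 to 0.39 when a library was left out) and for Mcam with equal totals (0.19), after quantile normalization (0.10) and without tamoxifen library 1 (0.0087, range -0.57 to 0.0087 when a library was left out), and the cause was not tested. The number of members called lower was 7 to 8 when a library was left out and 6 to 8 otherwise, and none was called higher under any alternative run. Over all genes 5867 were called higher and 3284 lower. Leaving out 1 library gave 2553 to 6163 higher and 1594 to 3537 lower, the lowest without tamoxifen library 2, with 3030 higher and 1994 lower without tamoxifen library 1. A filter at a mean of 100 tested fewer genes and gave 3540 higher, and the adjusted p alone gave 5228 lower. The split depended on scaling, with 7206 higher and 1838 lower at equal totals and 4615 higher and 5509 lower after quantile normalization. The log2 ratio of Pecam1 to Cdh5 changed sign around 0, with a group difference of -0.024 to 0.016 when a library was left out, the positive values being those without control library 1 or tamoxifen library 1. The replicate numbers were shared by 2 pairs only, and the deviations of same-numbered libraries correlated at 0.025 over 20485 genes. The samples were therefore not paired in the main model, but with 2 libraries a group this value cannot exclude a pairing. With the replicate block 6064 genes were called higher and 3461 lower, and 7 members lower. With 2 libraries a group no exact permutation p can fall below 0.33.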
